A study of Mus musculus with 10 samples.

Results

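The imprinted growth genes around *H19* are 10 genes, *H19*, *Igf2*, *Meg3*, *Dlk1*, *Cdkn1c*, *Peg3*, *Mest*, *Grb10*, *Igf2r* and *Plagl1*, taken by symbol from the 39273 genes of the deposited mouse RNA-seq table. The set was chosen by the measured fall of *H19* between days 5 and 20 of culture, and the other 9 are imprinted growth genes added by name. They were followed through 10 libraries in 5 groups of 2 to ask whether the loss of *H19* in culture extended to other imprinted genes, replicate by replicate. UB organoids were grown from E11.5 ureteric buds, which give rise to the collecting duct (CD), and were sequenced after 5, 10 and 20 days in mUBCM, a medium that expands ureteric progenitors. CD organoids came from UB organoids moved after 10 days in mUBCM into CDDM, a differentiation medium, for 7 days. The labels give all these organoids a C57BL/6 x Swiss Webster background and the Wnt11-RFP +/- genotype, in which the reporter marks ureteric tip cells. The adult mCD group is described in the series as CD cells sorted from 2-month-old Hoxb7-Venus mice, in which Venus marks the ureteric lineage. Their sample labels instead repeat the embryonic age and the reporter genotype of the organoids, and the series' description was followed here. Pooling of buds or animals is not given in the sources used here, and the labels do not say whether the 2 libraries of a group came from separate cultures, so p-values measure the spread between these libraries only.

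An imprinted gene is expressed from the copy inherited from a single parent, because a methylation mark set in the egg or sperm distinguishes the parental copies. Many paternally expressed genes promote growth and many maternally expressed genes restrain it, and most are high in the embryo and decline after birth. *H19* and *Igf2* share a control region and enhancers on distal chromosome 7, and *Meg3* and *Dlk1* are paired in the same way on chromosome 12. The counts do not separate the parental copies, so they give the level of each gene and not its imprinting.

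*H19* and *Igf2* are each also host to a microRNA, and these are shown because the host RNA is the gene measured. *H19* is a long non-coding RNA at chr7:142575529-142578143 on the minus strand of GRCm38, and *Igf2*, the fetal insulin-like growth factor, lies at chr7:142650766-142666816 on the same strand. The 4 mature sequences are from RefSeq on GRCm38.p6, 5′ to 3′, with the seed (bases 2 to 8) in capitals, and no seed is shared between them.
mmu-miR-675-5p (*H19*): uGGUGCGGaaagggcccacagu
mmu-miR-675-3p (*H19*): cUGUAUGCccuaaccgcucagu
mmu-miR-483-5p (*Igf2*): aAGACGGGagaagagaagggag
mmu-miR-483-3p (*Igf2*): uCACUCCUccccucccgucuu
These libraries do not measure the mature forms. The primary gene *Mir483* had 5 counts over all 10 libraries.

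Promoter windows of 300 bases, from 250 before to 50 after a RefSeq start, were found for 8 of the 10 genes, with 15 windows in all. The cAMP response element TGACGTCA, the binding motif of CREB factors, was searched on both strands, where it reads the same. It was present in *Meg3* and *Peg3*, 2 of 8 genes, and in 2.03% of all 27025 genes with a window. Both windows are shown on their own strand of GRCm38.p6 with the motif in capitals. It starts 57 bases before the start of *Meg3*, in chr12:109540746-109541045 on the plus strand, and 178 bases before that of *Peg3*, in chr7:6730370-6730669 on the minus strand.
Meg3: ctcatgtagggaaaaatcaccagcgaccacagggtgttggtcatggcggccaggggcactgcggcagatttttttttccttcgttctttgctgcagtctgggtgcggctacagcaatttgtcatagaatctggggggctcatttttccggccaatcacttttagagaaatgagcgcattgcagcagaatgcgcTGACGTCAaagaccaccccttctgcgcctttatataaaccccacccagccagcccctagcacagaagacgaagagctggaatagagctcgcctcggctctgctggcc
Peg3: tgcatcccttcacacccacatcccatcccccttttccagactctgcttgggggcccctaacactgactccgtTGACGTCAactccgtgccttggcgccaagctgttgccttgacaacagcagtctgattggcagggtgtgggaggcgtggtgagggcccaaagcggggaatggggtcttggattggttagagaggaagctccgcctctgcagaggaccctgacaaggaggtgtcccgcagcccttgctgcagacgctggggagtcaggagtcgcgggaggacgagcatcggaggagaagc
The core TGCCGC of ZFP57, a factor that protects imprints, was in at least 1 window of 5 of the 8 genes (*Grb10*, *Igf2*, *Meg3*, *Mest* and *Plagl1*) and of 13.1% of all genes. GGGGCCCC, the core bound by the zinc finger protein PLAGL1, was in the window of *Peg3* only and in 1.25% of all genes. Both were searched on both strands, and a match is a description of the letters, not a binding site.

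The libraries held between 11913613 and 24536676 counts, with at least 22858971 in the 4 libraries of days 5 and 10 and at most 16759872 in the other 6. The 2 sets also differ in the deposited scaled counts, where 27.8% to 36.0% of the genes are at 0 in the first set and none in the second. They differ in the embryos as well, since 4 Y-linked genes summed to at most 0.875 CPM (counts scaled to library size) in the first set and to between 230 and 295 CPM in the second. Every comparison of day 5 or day 10 with a later group therefore crosses the sets, and set, sex of the embryos and day cannot be told apart there. Ureteric lineage markers summed to between 1609 and 3536 CPM in all 10 libraries. All 10 genes passed the filter of at least 10 counts in total, with 24410 genes tested.

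*H19* was among the most abundant transcripts early in UB culture. At its end it was near the counting limit in the first library and far below day 5, but above that limit, in the second. It was 1550 and 1583 CPM at day 5, where it ranked 22nd and 20th by counts, 542 and 62.9 CPM at day 10, and 0.182 and 12.0 CPM at day 20. It was 49.8 and 35.8 CPM in CD organoids and 2.26 and 0.393 CPM in adult mCD cells. The day 20 libraries thus held 0.0116% and 0.764% of the day 5 mean, and the CD organoids 3.18% and 2.28%, above both day 20 libraries. *H19* was chosen for this pattern, so its values are a description and were not tested. The fitted log2 difference of day 20 from day 5 was -8.04, and it was -12.70 without the second day 20 library, which leaves 3 counts.

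*Igf2* also fell from day 5 to day 10 and from day 10 to day 20. Its level was 46.9 and 54.4 CPM at day 5, 24.7 and 3.21 CPM at day 10, 0.486 and 0.529 CPM at day 20, 1.85 and 1.12 CPM in CD organoids and 1.28 and 0.786 CPM in adult mCD cells. Only 8 counts remained in each day 20 library. From day 5 to day 20 *Igf2* changed by -6.50 ± 0.83 (SE) on the log2 scale, with a Benjamini-Hochberg adjusted p of 2.23e-05 from the quasi-likelihood test of edgeR, the source of all adjusted p-values given here. An antisense gene, *Igf2os*, overlaps *Igf2* and went from 112 and 140 counts at day 5 to 0 and 1 at day 20. The strand setting of the counting is not given in the sources used here, so reads of the pair cannot be told apart.

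The ratio of *H19* to *Igf2* was computed per kilobase of exon, with an exact 95% interval for counting error. It was 76.8 (72.4 to 81.7) and 67.7 (64.1 to 71.5) at day 5, and 51.1 (47.2 to 55.5) and 45.6 (36.8 to 57.2) at day 10, although *H19* itself differed 8.61-fold between the day 10 libraries. In CD organoids it was 62.6 (42.4 to 96.6) and 74.1 (43.7 to 137). At day 20 it was 0.872 (0.149 to 3.63) in the first library and 52.6 (26.1 to 124) in the second, and in adult mCD cells 4.11 (2.19 to 7.94) and 1.16 (0.312 to 3.74). The ratio was therefore between 45.6 and 76.8 in 7 of 10 libraries, and below 5 in a day 20 library and both adult libraries.

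**Figure D1:**
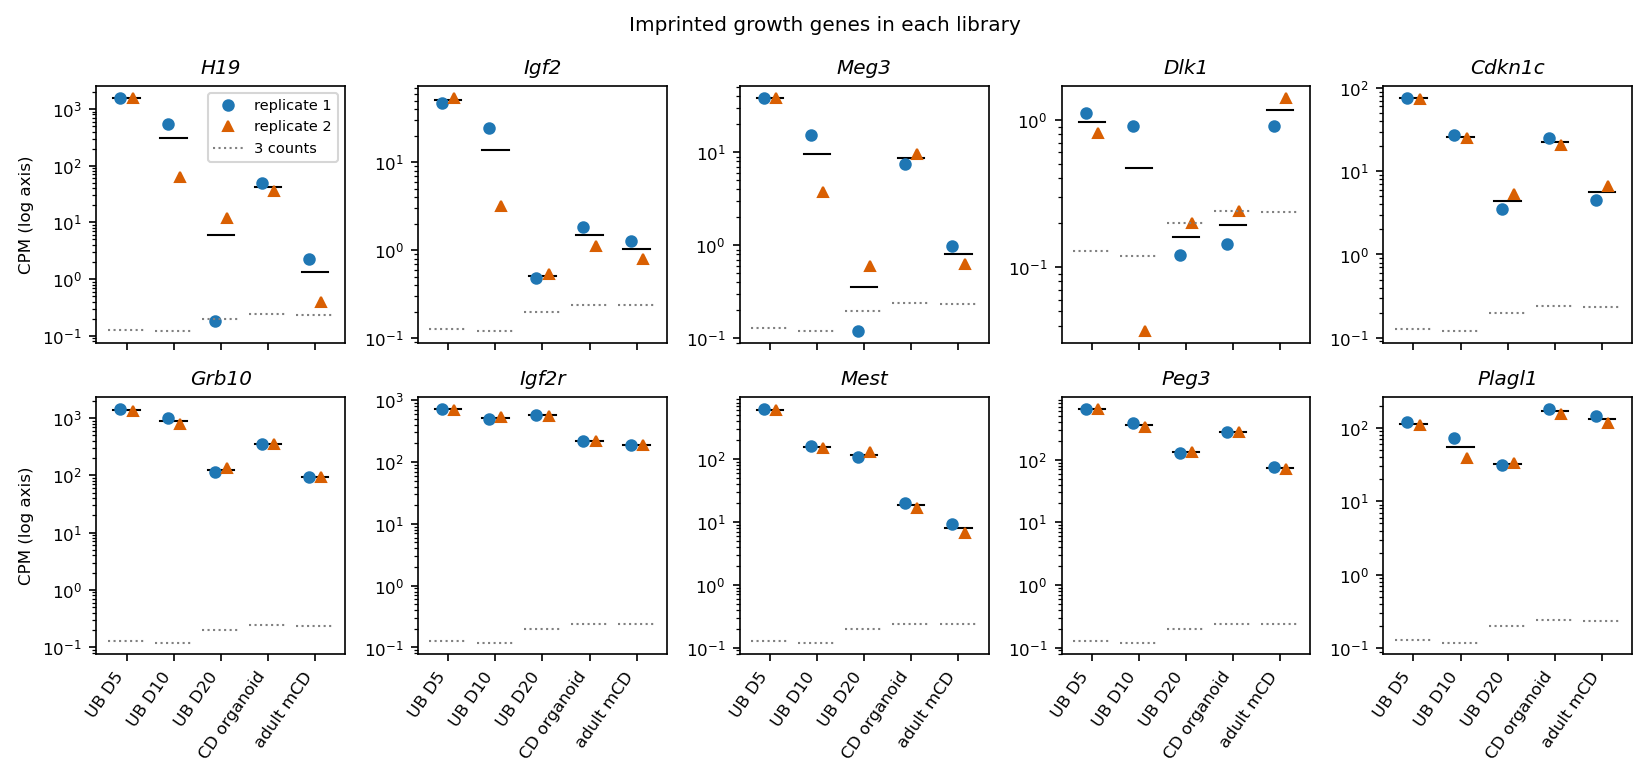
Level of each gene in CPM on a log axis in the 2 libraries of each group (circles, replicate 1; triangles, replicate 2), with the group mean as a bar and the level of 3 counts as a dotted line. *H19* spans 1583 to 0.182 CPM, and the 2 libraries of day 10 lie apart for *H19*, *Igf2*, *Meg3* and *Dlk1* and close together for *Mest*, *Peg3* and *Igf2r*.

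Of the pair on chromosome 12, *Meg3* fell and *Dlk1* was near the counting limit. *Meg3* (chr12:109541001-109571726, plus strand), a maternally expressed non-coding RNA, was 38.1 and 38.7 CPM at day 5, 15.5 and 3.79 CPM at day 10, and 0.121 and 0.595 CPM at day 20. It changed by -6.58 ± 0.66 (SE) on the log2 scale from day 5 to day 20 (edgeR adjusted p 2.40e-06). In CD organoids it stood at 7.55 and 9.71 CPM, above both day 20 libraries and between the 2 libraries of day 10. *Dlk1*, which encodes a Notch-related membrane protein that holds back differentiation, had 26 and 20 counts at day 5 and 2 and 3 at day 20. The day 20 and CD organoid libraries were all at or under 3 counts. Over both libraries *Dlk1* had 46 counts at day 5 and 5 at day 20, a ratio of 6.07 after scaling (exact 95% interval for counting error 2.42 to 19.6), with an adjusted p of 0.0422 in edgeR that misses the threshold.

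Among the genes that restrain growth, *Cdkn1c* and *Grb10* fell and *Igf2r* did not pass the call. *Cdkn1c* (chr7:143458339-143461050, minus strand), the cyclin-dependent kinase inhibitor p57, was 76.5 and 73.2 CPM at day 5, 27.4 and 24.9 CPM at day 10 and 3.52 and 5.35 CPM at day 20. *Grb10* (chr11:11930508-12038683, minus strand), an adaptor that dampens insulin and IGF receptor signalling, was 1431 and 1342 CPM at day 5, 1007 and 789.5 CPM at day 10 and 115 and 132 CPM at day 20. The log2 change from day 5 to day 20 was -4.07 ± 0.18 (SE, edgeR adjusted p 2.39e-09) for *Cdkn1c* and -3.48 ± 0.11 (SE, 2.06e-10) for *Grb10*. *Igf2r* (chr17:12682406-12769664, minus strand), the receptor that clears IGF2 by taking it to the lysosome, was 717 and 704 CPM at day 5 and 577 and 556 CPM at day 20. Its log2 difference of -0.33 ± 0.07 (SE, edgeR adjusted p 0.00151) lay well under 4-fold.

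The other growth-promoting genes stayed above 30 CPM at day 20. *Mest* (chr6:30723547-30748465, plus strand), a paternally expressed hydrolase-like gene of mesoderm, was 629 and 603 CPM at day 5, 162 and 151 CPM at day 10 and 107 and 128 CPM at day 20, with a log2 change of -2.39 ± 0.11 (SE, edgeR adjusted p 3.99e-09) from day 5 to day 20. *Peg3* (chr7:6703892-6730431, minus strand), a paternally expressed zinc finger gene, was 642 and 644 CPM at day 5, 393 and 335 CPM at day 10 and 128 and 133 CPM at day 20, a log2 change of -2.30 ± 0.09 (SE, edgeR adjusted p 5.03e-10). *Plagl1* (chr10:13060504-13131694, plus strand), a zinc finger transcription factor of the imprinted network, was 118 and 109 CPM at day 5 and 30.8 and 32.6 CPM at day 20, and its log2 difference of -1.84 ± 0.22 (SE, edgeR adjusted p 1.18e-05) was short of 4-fold.

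Set against day 5, 6 of the 9 genes other than *H19* fell by day 20, which means here a change of more than 4-fold with an adjusted p up to 0.01, against 3.93% of all genes tested, and none rose (4.68% of all genes tested). With p up to 0.05 and any fold all 9 were lower, where 24.6% of all genes tested were. Their median log2 difference was -2.39, and that of all genes tested -0.05. Both parental classes were represented, with 3 of 4 maternally expressed genes (*Meg3*, *Cdkn1c* and *Grb10*) and 3 of 5 paternally expressed genes (*Igf2*, *Mest* and *Peg3*). These 6 genes were each called in 13 of 13 alternatives that kept the threshold, left-out libraries included. Stromal markers summed to 15.8 and 41.4 CPM at day 5, 26.4 and 20.2 CPM at day 10, and 13.2 and 12.9 CPM at day 20, with 3 of 10 at or under 3 counts in each library of days 5 and 20. Their part in the result was not tested. In bulk libraries, fewer cells expressing a gene and less RNA per cell cannot be told apart.

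Within the first set of libraries, day 10 was compared with day 5. None of the 9 genes passed the call in edgeR, DESeq2 or limma (in edgeR 1.07% of all genes tested were called lower and 2.34% higher), while 8 were lower at p up to 0.05 after adjustment in edgeR (16.9% of all genes tested), all but *Dlk1*, and the same number at an unadjusted p under 0.05. *Mest*, at a log2 difference of -1.98 ± 0.11 (SE, edgeR adjusted p 8.07e-08), and *Meg3*, at -1.99 ± 0.41 (SE, 0.00203), were just under 4-fold. Without the first day 10 library 4 genes were called, and with the replicate number as a block 2 were. Day 20 was then compared with day 10, which shares its libraries with the comparisons on either side. *Igf2*, *Meg3*, *Cdkn1c* and *Grb10* fell, 4 of 9 against 1.73% of all genes tested, and none rose (1.66%), with log2 changes of -4.63 ± 0.88, -4.58 ± 0.71, -2.55 ± 0.18 and -2.86 ± 0.11 (SE). *Igf2r* differed by 0.14 ± 0.07 (SE, edgeR adjusted p 0.169). With only these 4 libraries in the fit, or without the first day 20 library, 2 of the 9 genes were called.

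**Figure D2:**
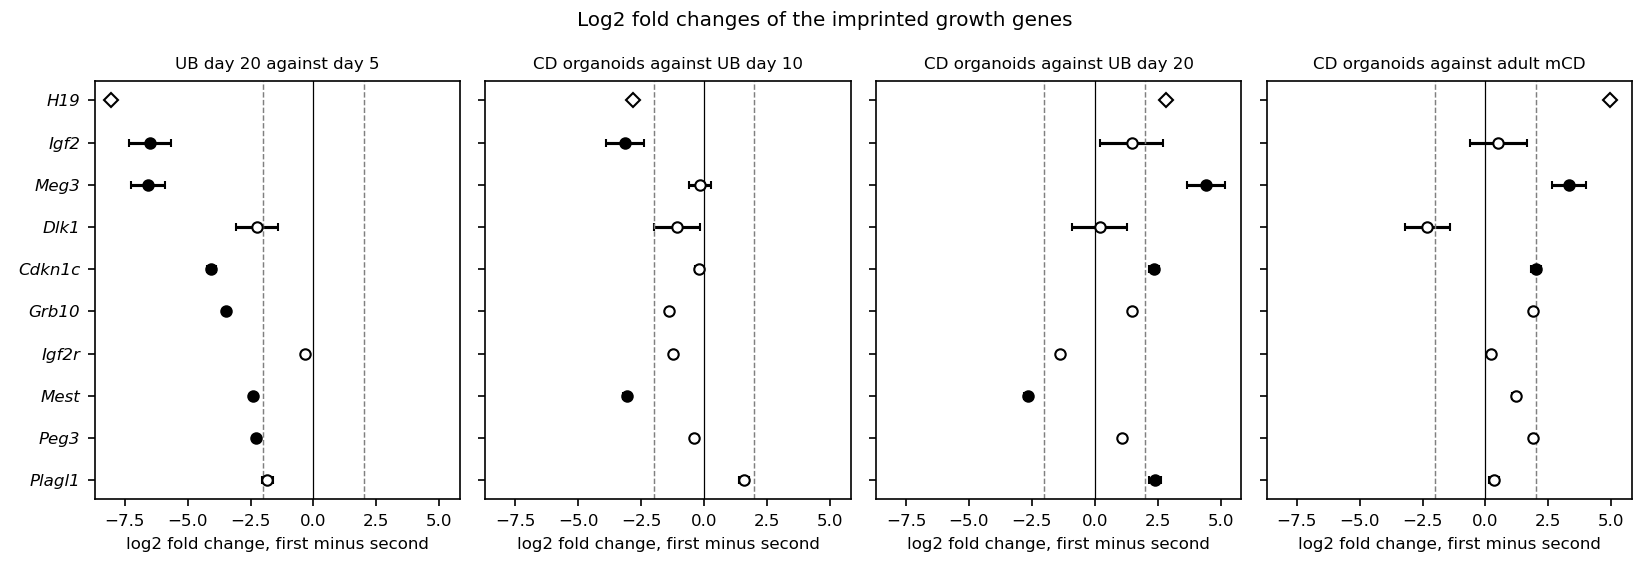
Log2 fold change (first group minus second) of each gene in 4 comparisons, with bars of 1 SE, filled points for genes that passed the call and dashed lines at 4-fold, and a diamond without a bar for *H19*, which was not tested. The 9 tested genes lie below 0 in day 20 against day 5, and *Mest* lies below the dashed line and *Meg3*, *Cdkn1c* and *Plagl1* above it in CD organoids against day 20.

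Replicate by replicate, the day 10 libraries separated the genes into those that moved with *H19* and those that did not. The first day 10 library was higher than the second by 8.61-fold for *H19*, 7.68-fold for *Igf2* and 4.09-fold for *Meg3*. *Dlk1* had 23 counts in the first and 1 in the second, or 0.912 and 0.0365 CPM, and the 95% interval of their ratio for counting error was 4.06 to 1030. *Plagl1* differed 1.90-fold in the same direction, and *Cdkn1c*, *Peg3*, *Mest*, *Grb10* and *Igf2r* differed by 1.08-fold to 1.27-fold. Among 11096 genes with a mean of at least 5 CPM at day 10, 11 were more than 4-fold lower in the second library, or 0.0991%, and *H19*, *Igf2* and *Meg3* were 3 of these 11. *Col2a1*, a cartilage collagen, and *Slc2a3*, a glucose transporter, were also among them. Stromal markers, at 26.4 and 20.2 CPM, and ureteric progenitor markers, at 2523 and 2935 CPM, differed less between these libraries as sums. Within the progenitor sum *Wnt11* was lower in the second library, at 192 and 109 CPM. The others, *Ret*, *Gfra1*, *Etv5* and *Sox9*, were higher there, with *Ret* at 1358 and 1608 CPM. Between the day 5 libraries the largest difference among the 10 genes was 1.36-fold, for *Dlk1*.

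Of the 10 genes, *H19* differed most between the day 20 libraries. It had 3 counts in the first library and 181 in the second, a ratio of 65.7 after scaling with a counting interval of 22.1 to 322, whereas *Igf2* had 8 counts in each. *Meg3* had 2 and 9 counts, and *Cdkn1c*, *Peg3*, *Mest*, *Grb10*, *Igf2r* and *Plagl1* differed by 1.04-fold to 1.52-fold. Among 10945 genes at 5 CPM or more, *H19* and the predicted gene *Gm4518* were the 2 (0.0183%) that were more than 4-fold higher in the second library. In CD organoids the 8 genes above 3 counts other than *Igf2* differed by 1.00-fold to 1.39-fold and *Igf2* by 1.65-fold, and in adult mCD cells *H19*, with 30 and 5 counts, differed 5.75-fold.

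**Figure D3:**
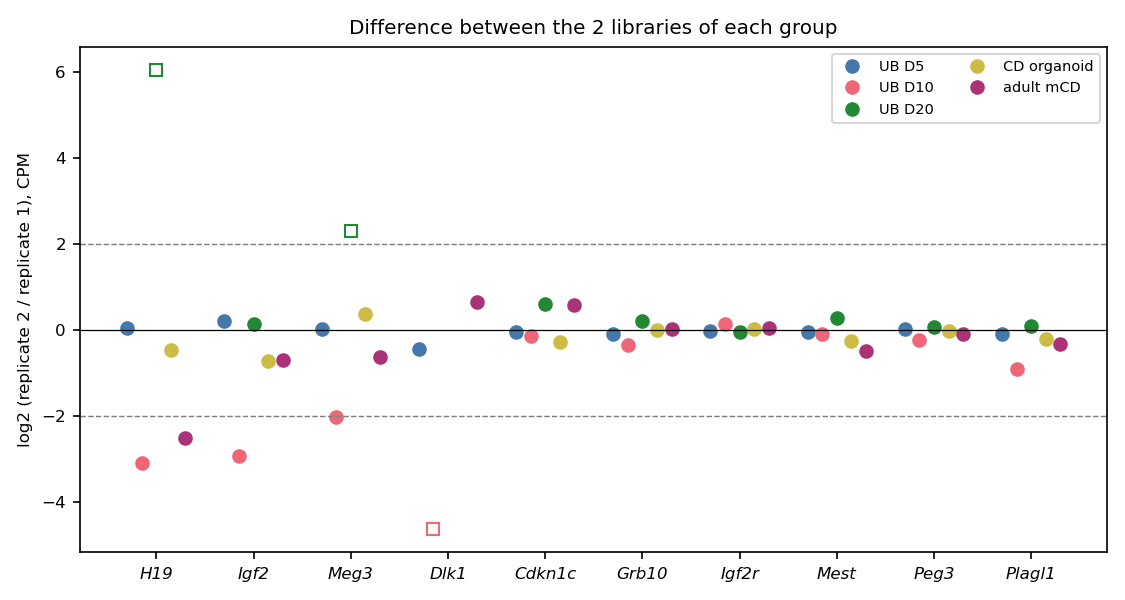
Log2 ratio of replicate 2 to replicate 1 for each gene and group, with open squares where a library had 3 counts or fewer, no point where neither had more, and dashed lines at 4-fold. The day 10 points of *H19*, *Igf2*, *Meg3* and *Dlk1* lie below -2, and the day 20 point of *H19* lies at 6.04.

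CD organoids were compared with UB organoids of day 10. *Igf2* and *Mest* fell, 2 of 9 genes against 5.71% of all genes tested, and none rose by the same call (4.96%), where the median log2 difference of all genes tested was -0.15. *Mest* was 20.1 and 16.8 CPM in CD organoids and changed by -3.08 ± 0.13 (SE, edgeR adjusted p 3.08e-10) on the log2 scale. *Copg2*, on the opposite strand, overlaps *Mest* and had 1419 and 1178 counts in CD organoids against 282 and 209 for *Mest*, so without the strand setting the low values of *Mest* are uncertain. *Igf2* changed by -3.16 ± 0.76 (SE, edgeR adjusted p 0.00341), a call that was lost without either CD organoid library, with only the libraries compared and under limma, where *Mest* alone was left. It was also lost without the first day 10 library, where *Igf2* differed by -1.05 and *Plagl1* was called higher instead, at 2.14. *Grb10*, *Igf2r* and *Peg3* were also lower in both CD organoid libraries than in either day 10 library, each under 4-fold. Their log2 differences were -1.38 ± 0.11 (SE, edgeR adjusted p 1.01e-07), -1.235 ± 0.071 (SE, 6.26e-09) and -0.40 ± 0.08 (SE, 9.47e-04). *Plagl1* was 179 and 154 CPM, above the 72.6 and 38.3 CPM of day 10, with a log2 difference of 1.59 ± 0.21 (SE, edgeR adjusted p 2.24e-05) short of 4-fold. *Cdkn1c*, at 25.1 and 20.5 CPM, overlapped day 10, with a log2 difference of -0.20 ± 0.15 (SE, edgeR adjusted p 0.327). *Meg3* also overlapped, at -0.16 ± 0.45 (SE, 0.808), and without the first day 10 library this difference was 1.18. Stromal markers summed to 260 and 129 CPM in CD organoids. Most of this sum was *Col1a1*, *Col1a2* and *Col3a1*. *Pdgfra* was also higher than at day 10, and *Pdgfrb* was lower, at 3.28 and 1.68 CPM against 4.84 and 4.45 CPM. Leukocyte markers summed to 52.2 and 46.0 CPM in CD organoids, with 4 of 6 at or under 3 counts in each library, against 6.19 and 7.73 CPM at day 10. The part of either in these values was not tested.

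The comparison of CD organoids with UB organoids of day 20, added after the data were seen, lies within the second set of libraries and between organoids that both hold Y-linked transcripts. CD organoids left mUBCM after 10 days and did not pass through day 20, so a difference here is not a change from day 20. *Meg3*, *Cdkn1c* and *Plagl1* were called higher in CD organoids, 3 of 9 genes against 4.74% of all genes tested. *Mest* was called lower (4.73% of all genes tested). The log2 differences were 4.42 ± 0.74 (SE, edgeR adjusted p 2.26e-04) for *Meg3*, 2.36 ± 0.19 (SE, 2.34e-07) for *Cdkn1c*, 2.39 ± 0.22 (SE, 8.98e-07) for *Plagl1* and -2.67 ± 0.13 (SE, 1.66e-09) for *Mest*. *Grb10*, at 345.2 and 344.8 CPM in CD organoids, and *Peg3*, at 277 and 273 CPM, were higher than at day 20 by 1.48 ± 0.11 and 1.07 ± 0.08 (SE) on the log2 scale, both under 4-fold. *Igf2r*, at 218 and 221 CPM, differed by -1.37 ± 0.07 (SE). *Igf2* differed by 1.48 ± 1.25 (SE, edgeR adjusted p 0.392). The 4 called genes were each called in 13 of 13 alternatives that kept the threshold. Stromal markers differed here too, with 13.2 and 12.9 CPM at day 20, as did leukocyte markers, with 12.6 and 13.9 CPM, and their part was not tested.

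Adult mCD cells, the in vivo end point of the series, were the third reference. Their libraries held markers of other nephron segments, with proximal tubule markers summing to 9612 and 11963 CPM against at most 39.5 CPM in the other 8 libraries, and loop of Henle markers to 3393 and 3595 CPM. Endothelial markers summed to 719 and 699 CPM against at most 9.52 CPM elsewhere, and stromal markers to 140 and 157 CPM. The part of these cells in the values was not tested. CD organoids exceeded adult cells in *Meg3* and *Cdkn1c*, 2 of 9 genes against 4.50% of all genes tested, at log2 differences of 3.33 ± 0.68 (SE, edgeR adjusted p 9.29e-04) and 2.02 ± 0.19 (SE, 8.55e-07), and none was called lower (9.84%). *Grb10* and *Peg3* lay just under 4-fold, at 1.91 ± 0.11 and 1.89 ± 0.09 (SE). Without the first adult library none of the 9 was called, and with library totals in place of TMM factors 4 were. *Plagl1* was 146 and 116 CPM in adult cells, with a log2 difference of 0.35 ± 0.20 (SE, edgeR adjusted p 0.184), and *Igf2* overlapped between the groups at 0.51 ± 1.15 (SE, 0.754). *Dlk1* was the only 1 of the 9 below 0, with 12 and 18 counts in adult cells against 2 and 3 in CD organoids. The ratio over both libraries was 6.12 after scaling (exact 95% interval for counting error 2.35 to 20.2). Its log2 difference of -2.32 ± 0.89 (SE, edgeR adjusted p 0.0450) missed the threshold.

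Adult cells were also compared with UB organoids of day 20, with which they share the low levels of *H19*, *Igf2* and *Meg3*. *Mest*, at 9.27 and 6.60 CPM in adult cells, differed by -3.88 ± 0.14 (SE, edgeR adjusted p 4.51e-11) and *Plagl1* by 2.05 ± 0.22 (SE, 2.24e-06), which is 1 of 9 genes in each direction against 6.89% and 12.3% of all genes tested. *Igf2* and *Meg3* differed by 0.96 ± 1.35 (SE, edgeR adjusted p 0.574) and 1.10 ± 1.09 (SE, 0.421). Each SE was about as large as the difference or larger, so equal levels are not shown. *Dlk1* had 30 counts over both adult libraries and 5 over both day 20 libraries. This is a ratio of 7.30 after scaling (exact 95% interval for counting error 2.80 to 24.1), with an edgeR adjusted p of 0.0248 that misses the threshold. *H19* in the adult libraries lay between the 2 day 20 libraries. The comparison shares its libraries with those above.

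The order of the genes, as mean CPM per kilobase of exon, changed between the groups. At day 5 *H19* was at 637 ± 9.35 (SD, n = 2), followed by *Mest* at 156 ± 4.69 and *Grb10* at 153 ± 6.93, which overlapped, then *Igf2r* at 76.3 ± 0.932, *Peg3* at 48.3 ± 0.119, *Cdkn1c* at 36.7 ± 1.15, *Plagl1* at 14.6 ± 0.796, *Igf2* at 8.85 ± 0.925, *Meg3* at 2.12 ± 0.0222 and *Dlk1* at 0.170 ± 0.0367. At day 20 *Igf2r* was first at 60.9 ± 1.59 (SD, n = 2) and *Mest* second at 29.8 ± 3.85, and *H19*, at 2.47 ± 3.39, could not be ordered against *Plagl1* or *Cdkn1c*. In CD organoids *Grb10* was first at 38.0 ± 0.0316 (SD, n = 2), and *Igf2r*, *Plagl1* and *Peg3* followed between 23.5 and 20.7, with *Plagl1* overlapping *Peg3*. In adult cells *Igf2r* at 20.3 ± 0.403 and *Plagl1* at 16.8 ± 2.70 (SD, n = 2) led.

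Likeness to *H19* was described by Pearson's r of log2(CPM + 1) over the 10 libraries, which share groups and sets and are not independent. Among 10539 genes with a mean of at least 10 CPM, the most alike were *Pgk1*, a glycolytic enzyme, at 0.977, *Zdbf2*, itself an imprinted gene, at 0.973, *Rrp1* at 0.971, *Igf2bp1*, an RNA-binding protein named for *Igf2* mRNA, at 0.971, and *Col4a6*, a basement membrane collagen, at 0.969. *Grb10* was at 0.960, *Meg3* at 0.954, *Peg3* at 0.950, *Cdkn1c* at 0.945 and *Igf2* at 0.912. *Mest* at 0.729, *Igf2r* at 0.551, *Plagl1* at 0.228 and *Dlk1* at 0.191 were less alike.

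Most other imprinted genes did not pass the call. Of 57 further imprinted genes listed there, 53 were tested, and 9 fell and 1 rose from day 5 to day 20 (3.93% and 4.68% of all genes tested), with a median log2 difference of -0.32 against -0.05 for all genes tested. Among the 35 with a mean of at least 5 CPM, 4 fell. *Rian*, a non-coding RNA downstream of *Meg3*, went from 15.3 and 14.1 CPM to 0.121 and 0.331 CPM, a log2 change of -5.74 ± 0.64 (SE, edgeR adjusted p 6.42e-06). *Zdbf2* changed by -4.90 ± 0.24 (SE) on the log2 scale, *Slc38a4*, an amino acid transporter, by -3.28 ± 0.14, and *Usp29*, the neighbour of *Peg3*, by -3.07 ± 0.19. In CD organoids against day 10, 3 of the 53 rose and 3 fell, shares near those of all genes tested (4.96% and 5.71%). *Kcnq1*, a potassium channel, rose by 3.86 ± 0.12 (SE) on the log2 scale, *Slc22a18*, a transporter gene, by 2.71 ± 0.19 and *Dcn*, a stromal proteoglycan, by 5.38 ± 0.24, while *Nnat* changed by -4.47 ± 0.13 and *Usp29* went from 12.8 and 9.26 CPM to 2.71 and 2.73 CPM. The sum of the stromal markers given above was also higher in CD organoids than at day 10. It differed between the CD organoid libraries, at 260 and 129 CPM, where *Dcn* was 22.4 and 21.5 CPM. Whether they are linked was not tested.

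**Figure D4:**
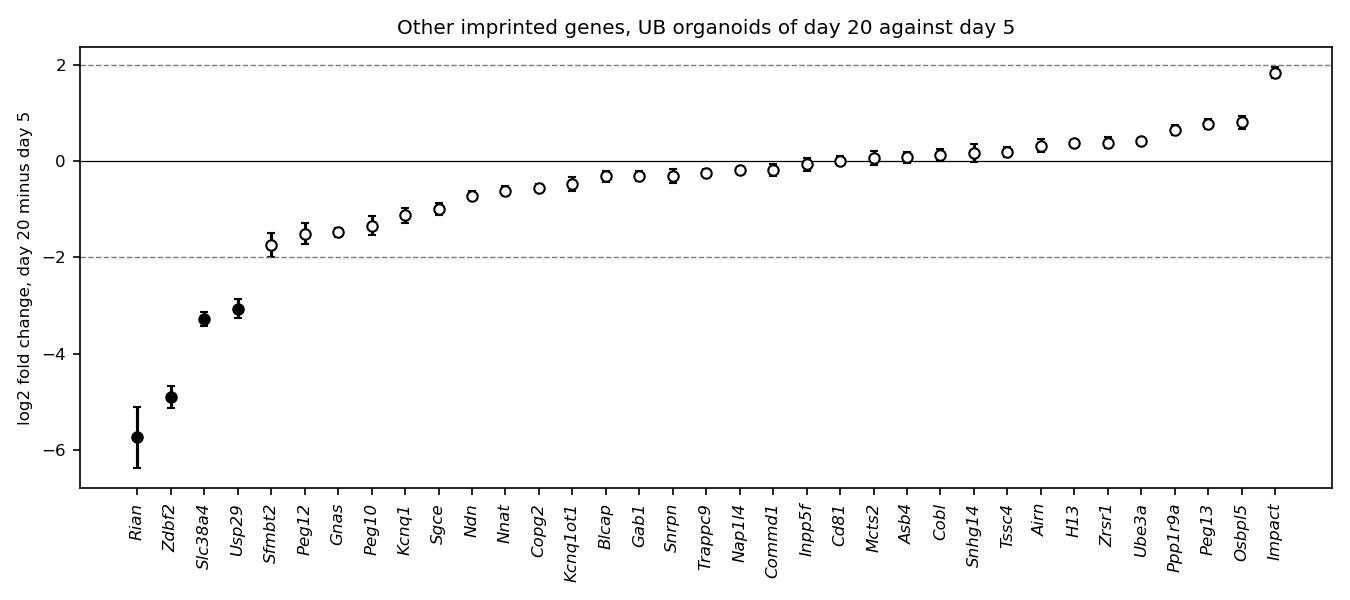
Log2 fold change of day 20 against day 5, with bars of 1 SE, for the 35 other imprinted genes with a mean of at least 5 CPM, ordered by value, with filled points for genes called and dashed lines at 4-fold. *Rian*, *Zdbf2*, *Slc38a4* and *Usp29* lie below the dashed line, and 21 of the 35 lie below 0.

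In the IGF pathway around *Igf2*, 3 of 9 further genes fell from day 5 to day 20 and none rose (3.93% and 4.68% of all genes tested). All 3 encode IGF2 mRNA-binding proteins of the fetal type. *Igf2bp1* went from 242 and 254 CPM to 0.607 and 1.72 CPM, a log2 change of -7.70 ± 0.53 (SE, edgeR adjusted p 8.51e-08), *Igf2bp3* changed by -3.95 ± 0.16 (SE) and *Igf2bp2* by -2.77 ± 0.10. *Igf2bp1* was also 97.3 and 32.3 CPM in the 2 libraries of day 10, higher in the library with more *H19*. The receptor gene *Igf1r* was 374 and 389 CPM at day 5 and 664 and 621 CPM at day 20, under 4-fold. In CD organoids against day 10, 1 of the 9 fell (5.71% of all genes tested), the insulin receptor substrate *Irs2*, with a log2 change of -3.33 ± 0.13 (SE, edgeR adjusted p 1.23e-10).

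Of 12 tested genes that set, keep or, as the TET enzymes do, remove DNA methylation at imprints, none was called from day 5 to day 20 in edgeR, DESeq2 or limma, while 7 were lower at p up to 0.05 before and after adjustment (24.6% of all genes tested after it). The 7 include *Tet2*, at a log2 difference of -0.45 ± 0.07 (SE), and *Tet3* was higher, at 0.27 ± 0.08 (SE, edgeR adjusted p 0.0147). The maintenance methyltransferase *Dnmt1* was 439.5 and 379 CPM at day 5 and 224 and 205 CPM at day 20, and *Zfp57* went from 49.7 and 56.8 CPM to 22.4 and 21.3 CPM, both under 4-fold. In CD organoids against day 10, 2 of the 12 fell (5.71% of all genes tested), with log2 changes of -2.84 ± 0.10 (SE) for *Uhrf1*, the partner of *Dnmt1* at replicating DNA, and -2.24 ± 0.09 for *Dnmt1*. Of 6 other CDK inhibitors, 2 rose from day 5 to day 20 (4.68% of all genes tested) and none passed the call as lower (3.93%), while 3 were lower at p up to 0.05 (24.6%). These 3 were *Cdkn1b*, at a log2 difference of -0.56 ± 0.10 (SE), *Cdkn1a*, at -0.39 ± 0.14, and *Cdkn2d*, at -1.51 ± 0.15. *Cdkn2d* was 26.0 and 23.3 CPM at day 5, 8.62 and 8.59 CPM at day 20 and 11.46 and 12.59 CPM in CD organoids. Of these groups it was lowest at day 20, as *Cdkn1c* was, but its differences were under 4-fold and smaller than those of *Cdkn1c*. *Cdkn2a*, which encodes p16 and ARF, was 0 and 0.0816 CPM at day 5 and 45.2 and 49.0 CPM at day 20, and *Cdkn2b* rose by 3.94 ± 0.23 (SE, edgeR adjusted p 2.48e-08). Both were lower in CD organoids than at day 20, with *Cdkn2a* at 2.21 and 3.45 CPM.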

How the data were processed

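RNA was sequenced from 10 mouse libraries. Per the labels and the study's methods, the authors trimmed reads, aligned them with STAR to GRCm38.p6 and assigned them to GENCODE genes, and the deposited table holds counts, RPKM and a scaled signal (TMM values). The labels' tools also include FastQC 0.11.8, cutadapt 2.5, Trimmomatic 0.36 and edgeR 3.28.1. The RPKM that the authors deposited use gene lengths up to 3.56 times the exon length in GENCODE, so levels per kilobase were recomputed from exon length. The labels and the study's methods name different library kits. The deposited scaled signal was used only in an alternative with limma.

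Counts were tested with edgeR 4.0.16 (quasi-likelihood, TMM factors from 0.792 to 1.12, prior count 1) in R 4.3.3 in a single fit of 5 group means over all 10 libraries. Genes with at least 10 counts in total were tested, and genes were called at a Benjamini-Hochberg adjusted p of at most 0.01 and more than 4-fold, after the study's thresholds. The SE given with a log2 value is its absolute size divided by the square root of the F statistic of the quasi-likelihood test. It is approximate where counts are few, because the prior count shrinks the log2 value. CPM used the same factors. The fit was also tested on simulated data. A floor of 3 counts corresponds to 0.109 to 0.241 CPM, and floors and intervals cover counting error alone, because no molecular identifiers were used. Ratios that rest on 1 to 5 counts are given with exact 95% intervals. Ratios between the libraries of a group used CPM, and the count of genes more than 4-fold apart added 0.1 CPM.

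The 10 genes and all lists were chosen with earlier results of these data known. All 10 were followed in each comparison, but the text does not give every gene for every comparison. From each list, up to 5 called genes with the largest change and a mean of at least 5 CPM were named for day 20 against day 5 and for CD organoids against day 10, and the 5 genes most like *H19* were named; other named genes were chosen after their values were seen. Alternatives were RLE scaling, library totals, DESeq2 1.42.0, limma 3.58.1, other filters, a prior count of 5, a looser threshold, only the libraries compared, a replicate block and each library left out. Same-numbered libraries did not deviate together (correlations of their differences between -0.165 and 0.0789), so no block was used. Figures were drawn with matplotlib 3.10.9.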

Additional observations from a re-analysis of the deposited data

How the results depend on the processing

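The count of the 9 genes called stayed within 1.5 times its value in 74 of 99 recomputations over the 7 comparisons, and of 891 log2 values of single genes 9 reversed. For day 20 against day 5 the count was 6 with every library left out in turn, and for CD organoids against day 20 it was 4. A looser threshold of 0.05 with no fold limit changed both the p and the fold limit. It gave 8 genes lower for day 10 against day 5 (16.9% of all genes tested) and 7 lower for day 20 against day 10. For CD organoids against day 10 it gave 5 lower and 1 higher, and against adult cells 1 lower and 6 higher. Adult cells against day 20 had 4 lower and 2 higher, and CD organoids against day 20 had 2 lower and 5 higher. Shares of all genes at this threshold are not given here for the comparisons after the first, so those counts cannot be set against them. RLE scaling gave 1 gene for day 10 against day 5 and 1 for CD organoids against adult cells, where library totals gave 4, a prior count of 5 gave 1, DESeq2 gave 1 and limma gave 4. Only the libraries compared gave 2 for day 20 against day 10 and 1 for CD organoids against day 10, where limma also gave 1. For adult cells against day 20 limma called 2 genes lower and none higher, against 1 in each direction. The cause of these differences was not tested.

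Leaving out each library gave 0 to 4 genes for day 10 against day 5 (4 without the first day 10 library and 1 without the second day 5 library), 2 to 5 for day 20 against day 10 (2 without the first day 20 library), 1 to 2 for CD organoids against day 10 (1 without either CD organoid library, and *Plagl1* in place of *Igf2* without the first day 10 library), 0 to 2 for CD organoids against adult cells (0 without the first adult library, 1 without the second adult or the first CD organoid library) and 1 to 2 for adult cells against day 20 (1 without the first adult library). The lone library left was then assumed to vary like the other groups. The replicate numbers did not pair the libraries, and with the replicate block 2 genes were called for day 10 against day 5, and no other count of the 9 moved by over 1.5 times. Crossing the numbers of day 20, chosen after seeing the data, left 817 genes called over the table for day 20 against day 10, against 820 uncrossed.

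The values that reversed were these. With each library left out, *Dlk1* ranged from -2.15 to 1.22 for day 20 against day 10 and from -1.96 to 1.41 for CD organoids against day 10, above 0 only without the first day 10 library, and from -0.12 to 0.47 for CD organoids against day 20, with -0.06 without the first day 20 library. *Meg3* ranged from -0.83 to 1.18 for CD organoids against day 10, highest without the first day 10 library and 0.0175 without the first CD organoid library, and was 0.066 under limma. *Cdkn1c* became -0.11 for adult cells against day 20 under library totals and under limma. *H19* ranged from -3.81 to 2.57 in that comparison, above 0 only without the second day 20 library. Under library totals the median of all genes was 0.34 for CD organoids against adult cells (0 under TMM), -0.47 for adult cells against day 20 (-0.06) and 0.16 for day 10 against day 5 (0.02). Depth limits *Dlk1* throughout, and *Igf2*, *Meg3* and *H19* at day 20 and in adult cells, where single libraries held 2 to 181 counts.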
